A study of Mus musculus with 14 samples.

Results

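The Hox genes of the mouse encode homeodomain transcription factors and lie in 4 clusters, Hoxa, Hoxb, Hoxc and Hoxd. The genes described here are those whose symbol is Hoxa, Hoxb, Hoxc or Hoxd followed by a number, each through its probe set with 1 gene symbol and the highest mean signal. This gave 37 of the 19938 genes measured, 11 anterior (paralog groups 1 to 4), 10 central (5 to 8) and 16 posterior (9 to 13), and each of the 37 had exactly 1 such probe set. The symbols chose the genes, and the signal was used only in the rule for the probe set.

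The material came from C57BL/6 mice and was hybridised to 14 Affymetrix expression arrays, 2 in each of 7 groups. Organoids of gallbladder, liver and small intestine are epithelial cultures grown in Matrigel, here with EGF (50 ng/mL), FGF10 (50 ng/mL), HGF (50 ng/mL), nicotinamide (10 mM), R-spondin 1 and noggin. For differentiated gallbladder organoids, R-spondin 1, noggin and nicotinamide were withdrawn for 2 weeks, so the medium shared by all 4 organoid groups was the base with EGF, FGF10 and HGF. The other groups were gallbladder, liver and small intestine tissue, which hold muscle, stroma and immune cells beside the epithelium. The labels give neither the segment of the small intestine nor the age of the mice. Whether the 2 replicates of a group are different mice or cultures is not given either, and the p-values below may therefore measure technical spread.

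Hox genes are expressed along the body axis in the order of their position in each cluster, a property called collinearity, and the combination a cell expresses is part of its regional identity. Genes at the anterior end of a cluster are active from the hindbrain and foregut level backwards, and those at the posterior end are restricted to the hindgut, the trunk end, the limbs and the genital tract. In the gut the mesenchyme expresses Hox genes as well as the epithelium, and the caudal-type ParaHox genes Cdx1 and Cdx2, retinoic acid and Polycomb proteins act upstream of the clusters.

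Values are log2 signals, and a difference of 1 is a doubling on that scale. Each comparison was tested with limma on all 19938 genes, and genes with an adjusted p (Benjamini-Hochberg over all genes) below 0.05 count as called; errors are standard errors from the same fit unless stated otherwise, with n = 2 arrays per group. Replicate arrays differed with a pooled SD of 0.102 to 0.128 log2 units over the Hox genes among organoids and of 0.157 to 0.216 among tissues, against 0.0952 to 0.136 and 0.289 to 0.404 over all genes. The fit gives each gene 1 estimate of spread for all groups. Errors and p-values of tissue comparisons may therefore be too small, and those of organoid comparisons too large. The SD of all gene signals was 2.05 on gallbladder tissue replicate 1 and 2.15 to 2.23 on the other arrays, and the median of 1027 olfactory receptor genes was 5.52 there against 4.83 to 5.04 elsewhere. The log2 of the summed hepatocyte markers was 16.13 to 16.89 in gallbladder tissue, 17.03 to 17.13 in liver tissue and 10.82 to 10.97 in undifferentiated gallbladder organoids. On small intestine tissue replicate 2 the mean log2 signal of 7 pancreatic acinar markers was 12.84, against 6.89 on replicate 1. Smooth muscle markers summed to 10.68 to 10.91 on the log2 scale in organoids, 15.70 to 16.09 in gallbladder tissue, 14.36 to 14.50 in small intestine tissue and 11.54 to 11.65 in liver tissue. The label of each organoid group was borne out by general epithelial markers, whose mean log2 signal lay at 12.24 to 12.88 in organoids, and intestinal epithelium markers averaged 12.47 and 12.56 in small intestine organoids against 7.73 to 7.92 in the other organoids.

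Of the 4 Hox genes called between organoid groups, Hoxa5 and Hoxd4 had a promoter in the RefSeq table (build GRCm38.p6), which held 23 entries for 21 of the 37 genes. The 250 bases before their starts are shown because small intestine organoids differed from 1 other origin in these genes, in Hoxa5 from liver and in Hoxd4 from gallbladder. The windows were searched on both strands for TTTATG, a caudal-type motif, for TGATTNAT, a Hox and Pbx motif, and for AGGTCA, the hexamer bound by retinoic acid receptors, whose reverse complement is TGACCT. Each is written 5′ to 3′ on the gene's own strand, with matches in capitals. Hoxa5 lies on the minus strand at chr6:52204588-52204837 and held no match, and Hoxd4 lies on the plus strand at chr2:74721728-74721977 with the receptor hexamer, as TGACCT, and the caudal-type motif.
Hoxa5: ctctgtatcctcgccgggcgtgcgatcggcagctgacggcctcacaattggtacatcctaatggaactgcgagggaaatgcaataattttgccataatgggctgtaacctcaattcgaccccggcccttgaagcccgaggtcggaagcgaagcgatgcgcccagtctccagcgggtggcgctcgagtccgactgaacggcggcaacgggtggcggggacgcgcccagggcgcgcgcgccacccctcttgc
Hoxd4: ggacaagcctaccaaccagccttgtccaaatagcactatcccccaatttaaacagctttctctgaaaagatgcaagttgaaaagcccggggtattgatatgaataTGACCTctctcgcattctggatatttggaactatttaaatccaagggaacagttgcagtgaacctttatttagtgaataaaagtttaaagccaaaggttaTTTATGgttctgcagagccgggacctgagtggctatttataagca
TTTATG was found in 4 of the 23 Hox entries (17.4%) and in 10.8% of all 32851 promoters of the same length. TGATTNAT was in 2 (8.70%) against 2.82%, and AGGTCA in 6 (26.1%) against 14%. With so few entries these shares are a description, and the letters do not show that a factor binds there.

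The signals of the Hox genes varied little between groups. The range of the 7 group means had a median of 0.53 log2 units over the 37 genes (0.20 to 1.02), against 0.98 over all genes. Only Hoxa5 spanned 1 log2 unit or more, which is 2.70% of the Hox genes against 49.2% of all genes. Among the 4 organoid groups the range had a median of 0.19 (0.07 to 0.95) against 0.44 for all genes, and Hoxb2 alone passed 0.5 (2.70% of the Hox genes, 43.8% of all genes). No Hox gene differed by 1 log2 unit or more in any of the 10 pair comparisons. The Hox genes were dimmer than most genes, with a median signal of 6.44 against 7.93 for all genes. No share was taken among genes of like signal, and the part of low signal in these small ranges was not tested.

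**Figure D1:**
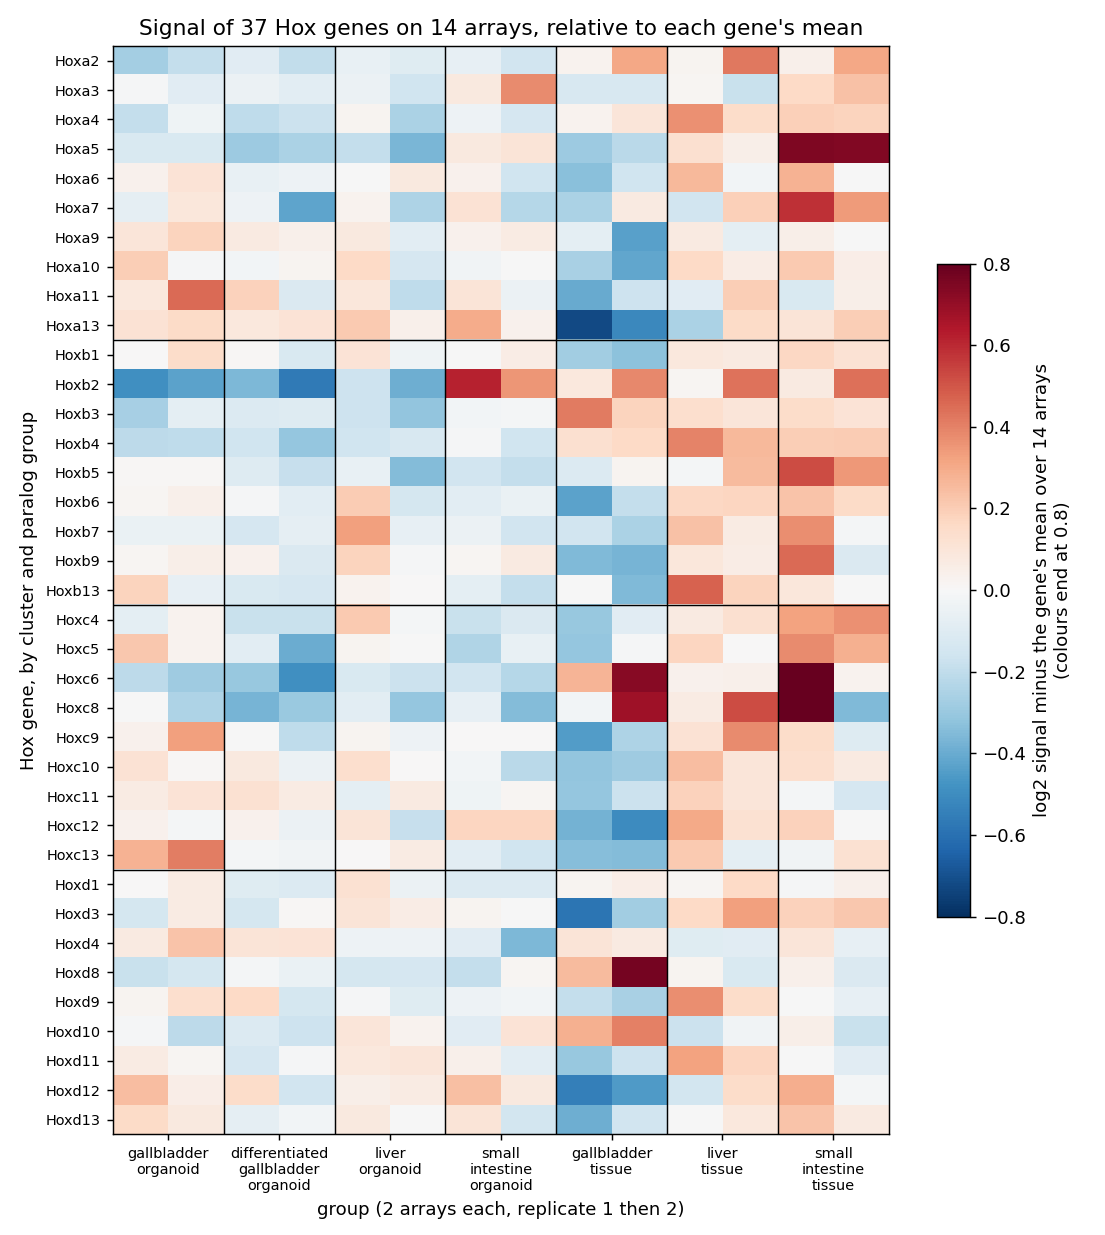
Log2 signal of 37 Hox genes (rows, by cluster and paralog group) on 14 arrays (columns, 2 for each of 7 groups) relative to each gene's mean over the arrays, with colours ending at 0.8 log2 units. Hoxa5 stands out on both small intestine tissue arrays, Hoxb2 on both small intestine organoid arrays, and most genes of paralog groups 9 to 13 are below their mean in gallbladder tissue.

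**Figure D2:**
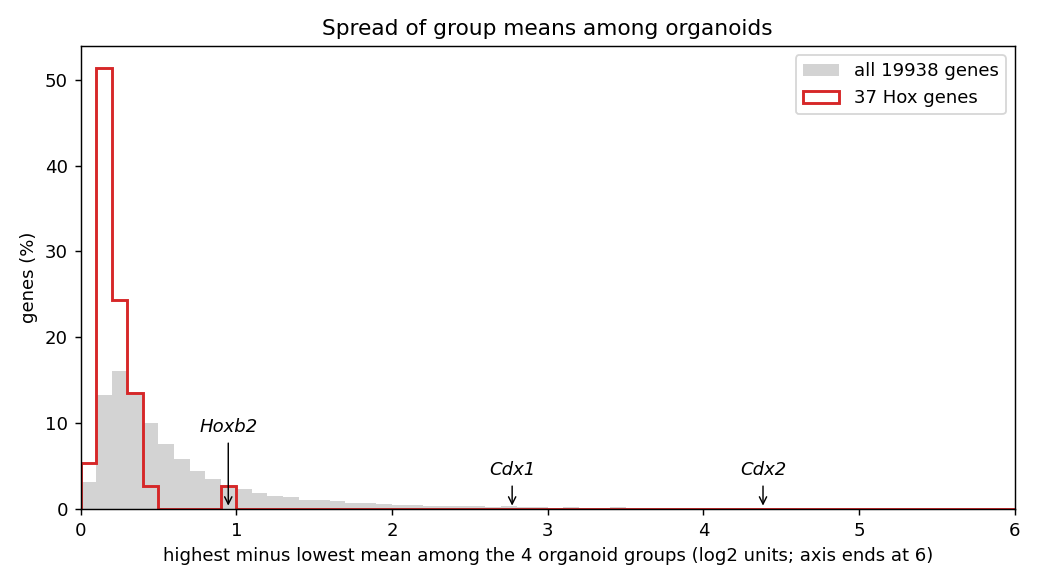
Share of genes (y axis, percent) by the highest minus the lowest mean among the 4 organoid groups (x axis, log2 units), for all 19938 genes and for the 37 Hox genes. The Hox genes lie at the low end with a median of 0.19, while Hoxb2 reaches 0.95, Cdx1 2.77 and Cdx2 4.38.

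Signals were also low. The mean over the 14 arrays had a median of 6.44 over the Hox genes (5.10 to 8.04) and of 7.93 over all genes, though signals of different probe sets cannot be ranked as levels of RNA. As a low-level mark, the 95th percentile of olfactory receptor genes, which are not expected to be active in these organs, lay at 6.53 to 7.10 by array. Between 5 and 21 Hox genes were above it on an array. The mark was highest on gallbladder tissue replicate 1, at 7.10 with 5 Hox genes above it, against 6.67 with 11 above it on replicate 2. Counts of genes above the mark in gallbladder tissue therefore depend on that array. Hoxb4, Hoxd10 and Hoxd11, for example, were above the mark on replicate 2 alone. Hoxa4, Hoxb1, Hoxb2, Hoxb3 and Hoxb7 were above it on both arrays of all 7 groups. Differences of genes below the mark in both groups compared lie within the signal range of these olfactory receptor genes and are given as differences in signal only. Near such a mark a change in RNA is compressed, and fewer cells expressing a gene cannot be told apart from less RNA per cell.

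Comparing the organoids of small intestine with those of gallbladder asks whether cultures keep a regional Hox pattern. Hoxb2, an anterior gene known for patterning of the hindbrain, was higher in small intestine organoids, and Hoxd4, an anterior gene of the same kind of neural and vertebral role, and Hoxc13, a posterior gene needed for hair, were lower. Those 3 were 8.11% of the Hox genes, while 35.6% of all genes were called, 15.4% higher and 20.2% lower. The share of Hox genes called was thus below that of all genes in this comparison. Hoxb2 was above the low-level mark in both groups, and Hoxc13 and Hoxd4 were above it in neither, nor in any other of the 7 groups.

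The signals of Hoxb2 were 8.08 and 7.82 in small intestine organoids, 6.97 and 7.03 in gallbladder organoids, 7.10 and 6.90 after differentiation and 7.30 and 7.07 in liver organoids. Gallbladder tissue gave 7.55 and 7.85, liver tissue 7.48 and 7.90 and small intestine tissue 7.53 and 7.90. Both small intestine organoid arrays were above every other organoid array, and the 3 tissues overlapped each other. The difference from gallbladder organoids was 0.95 ± 0.19 (limma adjusted p = 0.003, 95% interval up to 1.36), and it was called under 21 of 22 alternatives (adjusted p 9.97e-05 to 0.0322), the exception being a required minimum difference of 1 log2 unit.

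Hoxc13 read 6.26 and 6.19 in small intestine organoids and 6.62 and 6.75 in gallbladder organoids, with liver organoids (6.34 and 6.40) and differentiated gallbladder organoids (6.33 and 6.31) in between. The gallbladder organoid arrays were the 2 highest of the 8 organoid arrays. Its difference was -0.47 ± 0.11 (adjusted p = 0.00912; 0.000632 to 0.0785 over the alternatives). Hoxd4 read 6.49 and 6.22 against 6.65 and 6.81, a difference of -0.38 ± 0.11 (adjusted p = 0.0247; 0.00961 to 0.21). The groups did not overlap in either gene, as in 81.4% of all genes. The gap between the groups in Hoxd4 was smaller than that between the small intestine organoid replicates.

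The balance of higher and lower calls depended on scaling, though none of these genes reversed its direction. With quantile normalisation 5 Hox genes were higher (Hoxa3, Hoxa5, Hoxb4 and Hoxc12 beside Hoxb2) and 0 lower, with arrays centred on their medians 1 was higher and 1 lower, and with the values as deposited 1 was higher and 2 lower. The median over the Hox genes moved from -0.06 to 0.08 with quantile normalisation, while that over all genes moved from -0.11 to -0.03. Hoxc13 then had an adjusted p of 0.0785 and Hoxd4 of 0.176, and Hoxd4 had 0.0537 with centred arrays. Leaving out gallbladder organoid replicate 2 or small intestine organoid replicate 2 left 1 called gene, with adjusted p for Hoxc13 of 0.078 and 0.067 and for Hoxd4 of 0.17 and 0.21, and fitting the organoid arrays alone gave 5 by adding Hoxa3 (0.28 ± 0.10) and Hoxa5 (0.21 ± 0.08). Hoxa3, Hoxb4 and Hoxc12 are named here after their values were seen.

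Against liver organoids, small intestine organoids were higher in Hoxb2 and in Hoxa5, a central gene that acts in lung and gut mesenchyme. These were 2 of 37 genes (5.41%) against 26.5% of all genes called and 12.2% of all genes called higher. Hoxb2 differed by 0.76 ± 0.19 (adjusted p = 0.0118; 0.000474 to 0.1 over the alternatives). The signals of Hoxa5 were 6.05 and 6.08 in small intestine organoids and, in the others, 5.78 and 5.61 for liver, 5.85 and 5.85 for gallbladder and 5.68 and 5.72 for differentiated gallbladder. All 6 arrays of the other organoids lay below the small intestine organoids, but Hoxa5 was above the low-level mark in none of the organoid groups. Its difference from liver organoids was 0.37 ± 0.09 (adjusted p = 0.0123; 0.00368 to 0.113 over the alternatives), and that from gallbladder organoids was 0.21 ± 0.09 (adjusted p = 0.0943), which was not called. Neither gene was called without liver organoid replicate 2 (Hoxb2 0.0954, Hoxa5 0.113). Without small intestine organoid replicate 1 neither was called (Hoxb2 0.1, Hoxa5 0.0592) and the only call was Hoxa3 (0.48 ± 0.13), while without replicate 2 the count was 1 and Hoxa5 was lost (0.0783).

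Gallbladder and liver organoids, both derived from foregut organs, gave 0 called Hox genes by limma, against 12.7% of all genes (6.17% higher and 6.52% lower), and 1 Hox gene had an unadjusted p below 0.05. That gene was Hoxc13, higher by 0.31 ± 0.11 in gallbladder organoids (adjusted p = 0.0995), and with only the organoid arrays in the fit it was called (adjusted p = 0.0106). The Hox differences ran from -0.18 in Hoxb7 to 0.33 in Hoxa11, and the 95% intervals reached -0.71 and 0.85, both in Hoxc8, the gene with the widest interval. The median over the Hox genes was 0.04, and -0.07 with quantile normalisation.

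Withdrawal of R-spondin 1, noggin and nicotinamide from gallbladder organoids also gave 0 called Hox genes, against 4.73% of all genes (2.8% higher and 1.93% lower). By limma 2 Hox genes had an unadjusted p below 0.05, Hoxc13 at -0.37 ± 0.11 (adjusted p = 0.11) and Hoxc5 at -0.36 ± 0.14 (adjusted p = 0.233). With only the organoid arrays in the fit Hoxc13 was called (adjusted p = 0.00802). Of the 37 differences 33 were below 0 and 4 above, while 41.4% of all genes were above 0. The median was -0.08 against -0.04 over all genes. With quantile normalisation 24 were below 0 and the median was -0.03. The 95% intervals reached -0.99 and 0.57, both in Hoxc8.

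**Figure D3:**
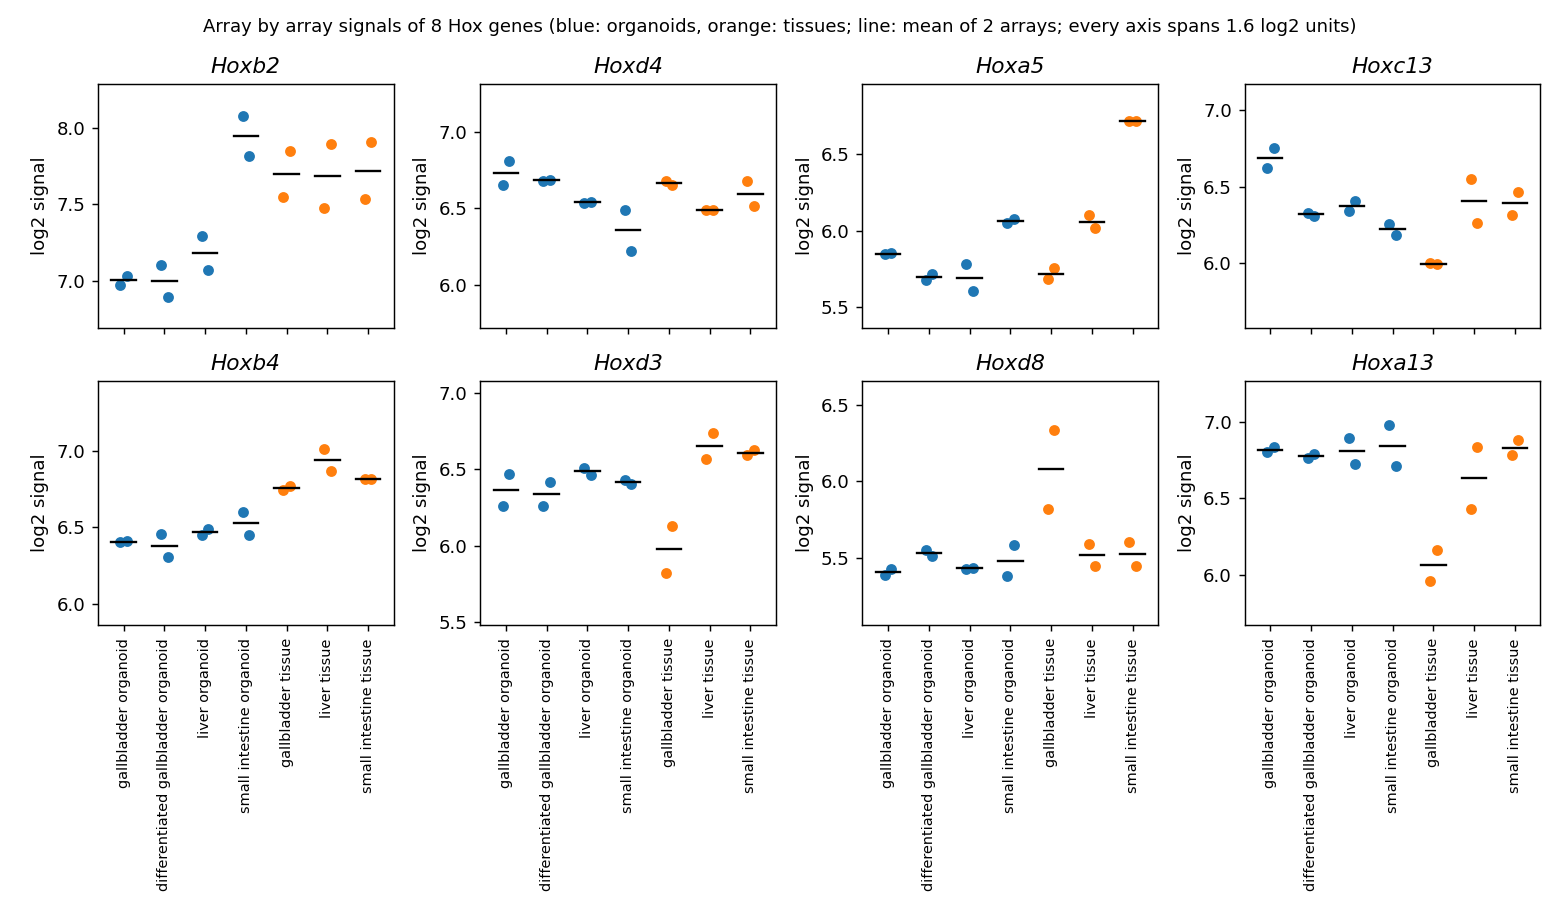
Log2 signal of 8 Hox genes on each array (points, blue for organoids and orange for tissues) with the mean of the 2 arrays of each group (lines); every axis spans 1.6 log2 units. Hoxb2 and Hoxa5 read higher on both small intestine organoid arrays than on the other organoid arrays. The Hoxa5 difference from gallbladder organoids was not called, and Hoxa5 was above the low-level mark in no organoid group. Hoxa5 is highest in small intestine tissue, and Hoxa13 and Hoxd3 are lowest in gallbladder tissue.

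In tissue, the gallbladder differed from both other organs in many Hox genes. Posterior genes were mostly lower in gallbladder than in liver tissue, with 12 of 16 called lower and 1, Hoxd10, called higher, a median of -0.46 for these 16. In all, 20 Hox genes were called (54.1%), beside 48.1% of all genes. Lower calls were 18 of 37 (48.6%) against 27.4% of all genes, and higher calls were 2 (5.41%) against 20.7%. The share called was thus near that of all genes, and the lower calls took a larger part of it. Of the 20 called genes 14 were above the low-level mark in neither tissue, 5 in 1 and only Hoxb1 in both. Of the 13 called posterior genes 9 were above it in neither and 4 in 1. These counts rest on the raised mark of gallbladder tissue replicate 1.

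Among posterior genes, Hoxa13, which patterns the hindgut and limb ends, read 5.96 and 6.17 in gallbladder tissue, 6.43 and 6.84 in liver tissue and 6.79 and 6.88 in small intestine tissue. Gallbladder arrays were the lowest, and liver replicate 1 was closest to them. The difference from liver was -0.57 ± 0.15 (adjusted p = 0.0102). Hoxc12, a posterior gene of the same cluster as Hoxc13, had signals of 6.06 and 5.94 against 6.75 and 6.56 (-0.65 ± 0.12, adjusted p = 0.00171). Hoxc9, active in thoracic segments, read 6.25 and 6.45 against 6.82 and 7.08 (-0.60 ± 0.15, adjusted p = 0.00732). Hoxb13, active at the tail end, read 6.14 and 5.79 against 6.61 and 6.32 (-0.50 ± 0.14, adjusted p = 0.0161). In none of these did the groups overlap, and 69.7% of all genes did not overlap between gallbladder and liver tissue. In Hoxb13 the gap between the groups was narrower than that between replicates of either.

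Among the other genes, the anterior gene Hoxd3 read 5.82 and 6.13 in gallbladder tissue, 6.57 and 6.74 in liver tissue and 6.59 and 6.63 in small intestine tissue. Its difference, gallbladder minus liver, was -0.67 ± 0.13 (adjusted p = 0.00169). Hoxd8, a central gene, went the other way with 5.82 and 6.34 in gallbladder, 5.59 and 5.45 in liver and 5.61 and 5.45 in small intestine tissue, and the gallbladder replicates lay farther apart than the others. Its difference from liver was 0.56 ± 0.15 (adjusted p = 0.0136). Hoxd10, a posterior gene of the same cluster, was higher as well, by 0.44 ± 0.12 (adjusted p = 0.0132), while Hoxd9, which lies between them, was lower (-0.48 ± 0.12, adjusted p = 0.00859).

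Small intestine tissue was higher than gallbladder tissue in 18 Hox genes (48.6%, against 24.3% of all genes) and lower in 2, Hoxd8 and Hoxd10 (5.41%, against 20.7%); 45.0% of all genes were called in either direction. Of the 20 called Hox genes 12 were above the low-level mark in neither tissue, 7 in 1 and only Hoxb1 in both, given the raised mark of gallbladder tissue replicate 1. The largest difference was in Hoxa5, at 1.00 ± 0.09 (0.997 before rounding, adjusted p = 1.55e-05). Its signals were 6.72 and 6.72 in small intestine tissue, 5.68 and 5.76 in gallbladder tissue and 6.10 and 6.02 in liver tissue, so the 3 tissues were separate and the small intestine was highest. Next came Hoxa13 at 0.77 ± 0.15, Hoxd12, a limb and genital patterning gene, at 0.64 ± 0.15 (6.50 and 6.20 against 5.66 and 5.76), Hoxd3 at 0.63 ± 0.13 and Hoxa7, a central gene, at 0.55 ± 0.20 (7.83 and 7.58 against 6.99 and 7.31). Hoxa7 was called under 10 of 19 alternatives (adjusted p 0.0194 to 0.21) and lost its call with the replicate block, with only the tissue arrays, and without any single gallbladder organoid, liver organoid or small intestine tissue array or gallbladder tissue replicate 1. Hoxd8 differed by -0.55 ± 0.15.

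Small intestine and liver tissue differed in only 2 Hox genes (5.41%, against 37.5% of all genes), 1 in each direction (2.7%, against 18.8% higher and 18.7% lower). Hoxa5 was higher in small intestine by 0.66 ± 0.09 (adjusted p = 0.00025). Hoxd11, which read 7.11 and 7.02 in small intestine and 7.43 and 7.28 in liver tissue, was lower, with a difference of -0.29 ± 0.10 (adjusted p = 0.0436). The count was 1 without any of the 8 organoid arrays, without liver tissue replicate 1 or without small intestine tissue replicate 1, and 4 without liver tissue replicate 2, which added Hoxb5 and Hoxd9.

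**Figure D4:**
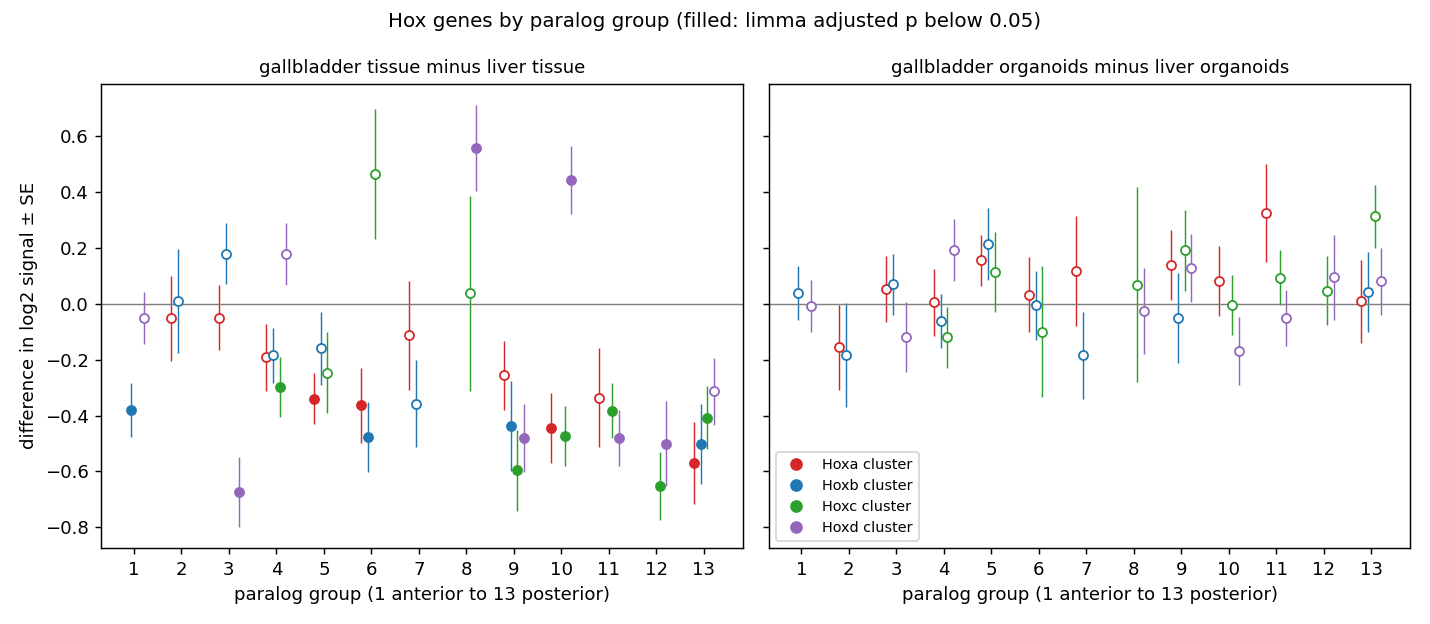
Difference in log2 signal ± SE for each Hox gene by paralog group (1 anterior to 13 posterior), coloured by cluster, for gallbladder minus liver tissue (left) and gallbladder minus liver organoids (right); filled points were called. In tissue, 12 of the 16 genes of groups 9 to 13 are called lower, while in organoids no gene is called.

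These tissue counts depended on the fit. With only the tissue arrays in the fit 2 Hox genes were called between small intestine and gallbladder and 2 between gallbladder and liver. The share of all genes called in that fit is not given here, so the counts do not show a fall particular to the Hox genes. Without small intestine tissue replicate 1 the first count was 11 and without gallbladder tissue replicate 1 it was 13; without liver tissue replicate 1 the second was 11 and without gallbladder tissue replicate 1 it was 13. The 2 genes higher in gallbladder tissue, Hoxd8 and Hoxd10, were not called against liver without gallbladder tissue replicate 2 (adjusted p 0.0703 and 0.0537; 0.000988 to 0.113 and 0.00797 to 0.0987 over the alternatives), nor against small intestine without that array or small intestine tissue replicate 2. Only 1 of them was called against liver without either liver tissue array. The direction was kept with quantile normalisation (16 higher and 2 lower in small intestine; 2 higher and 16 lower against liver) and with centred arrays (20 and 2; 1 and 22), where the median over all genes in the liver comparison moved from -0.09 to -0.21. Gallbladder tissue had the lowest group mean in 22 Hox genes, 15 of the 16 posterior, 3 of 10 central and 4 of 11 anterior. The share of all genes with their lowest group mean there was not counted, so these numbers have no background beside them. Both of its arrays were below all 12 others in 17 Hox genes (45.9%), against 14.1% of all genes, and above them in Hoxb3, Hoxd8 and Hoxd10 (8.11%, against 6.54%). Gallbladder tissue also carried the hepatocyte, smooth muscle and olfactory receptor values given above, and their part in these differences was not tested.

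Cultures were compared with the organ they came from, whose muscle and stroma they lack: the summed fibroblast markers lay at 10.18 to 10.53 on the log2 scale in organoids, 14.31 to 14.51 in gallbladder, 13.01 to 13.05 in liver and 12.66 to 12.88 in small intestine tissue. Their part in the differences was not tested. Small intestine organoids were lower than small intestine tissue in 5 Hox genes (13.5%, against 15.6% of all genes lower and 35.8% called) and higher in 0. All 5 were anterior or central: Hoxa5 at -0.65 ± 0.09 (adjusted p = 0.000331), Hoxb5 at -0.61 ± 0.13, Hoxc4 at -0.49 ± 0.11, Hoxc5 at -0.48 ± 0.14 and Hoxb4 at -0.29 ± 0.10. Hoxb5, a gene of gut neurons and mesenchyme, read 6.20 and 6.16 in organoids and 6.88 and 6.70 in tissue, Hoxc4 4.92 and 4.99 against 5.42 and 5.46, and Hoxc5 5.98 and 6.16 against 6.60 and 6.51. The groups were separate in each, as they were in 67.8% of all genes. Above the low-level mark in tissue but not in organoids were 3 of the 5, Hoxa5, Hoxb4 and Hoxb5, and the other 2 were above it in neither. Without small intestine organoid replicate 1 or small intestine tissue replicate 1, 3 were called. Hoxb4 was not called after quantile normalisation (adjusted p = 0.508; 0.035 to 0.508 over the alternatives), after centring, with only the arrays compared, or without any organoid or small intestine tissue array.

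Gallbladder organoids differed from gallbladder tissue in 21 Hox genes (56.8%, against 47.9% of all genes), 15 higher (40.5%, against 32.7%) and 6 lower (16.2%, against 15.2%). Of the posterior genes 12 were higher and 1, Hoxd10, lower. Of the 21 called genes 17 were above the low-level mark in neither group, 1 in 1 group, and Hoxb1, Hoxb2 and Hoxb3 in both. The raised mark of gallbladder tissue replicate 1 enters these counts too. Hoxa13 read 6.80 and 6.83 in organoids and 5.96 and 6.17 in tissue (0.75 ± 0.15, adjusted p = 0.00228), Hoxc13 6.62 and 6.75 against 6.00 and 5.99 (0.69 ± 0.11, adjusted p = 0.000742), and Hoxd12 6.46 and 6.27 against 5.66 and 5.76 (0.65 ± 0.15, adjusted p = 0.00608). The organoid arrays were higher in each without overlap, and 75.6% of all genes did not overlap in this comparison, in either direction. Lower in organoids were Hoxb2 (-0.69 ± 0.19), the anterior Hoxb3 (-0.47 ± 0.11) and Hoxb4 (-0.35 ± 0.10), the central Hoxc6 (-0.75 ± 0.23) and Hoxd8 (-0.67 ± 0.15), and Hoxd10. Hoxc6 read 5.77 and 5.70 in organoids and 6.26 and 6.71 in tissue. Only 8 were called without gallbladder organoid replicate 1 and 9 without replicate 2, and with only the gallbladder arrays 7. Quantile normalisation gave 10 higher and 7 lower, and leaving out gallbladder tissue replicate 1 gave 7 and 7, replicate 2 gave 13 and 3.

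Liver organoids were lower than liver tissue in 4 Hox genes (10.8%, against 18.2% of all genes lower and 44.9% called) and higher in 0 (26.7% of all genes). They were Hoxb4 (-0.47 ± 0.10, adjusted p = 0.00252), Hoxa4 (-0.37 ± 0.12), Hoxa5 (-0.37 ± 0.09) and Hoxb3 (-0.36 ± 0.11). Hoxa4 had signals of 8.07 and 7.79 in culture against 8.41 and 8.19 in tissue, and Hoxb3 7.73 and 7.58 against 8.03 and 7.99. Hoxb4 read 6.45 and 6.49 against 7.01 and 6.87. The organoids were lower in each without overlap, and 71.0% of all genes did not overlap in this comparison, in either direction. Hoxa4 and Hoxb3 were above the low-level mark in both groups, Hoxb4 in tissue alone and Hoxa5 in neither. Hoxb4 was called lower in organoids in all 3 organs, reading 6.60 and 6.45 against 6.81 and 6.81 in small intestine and 6.40 and 6.41 against 6.74 and 6.77 in gallbladder. The small intestine call was lost with quantile normalisation and under the other alternatives named above. On both arrays of a group, Hoxb4 was above the low-level mark only in liver and small intestine tissue. The liver comparison gave 1 call without liver organoid replicate 2, 1 with only the liver arrays and 8 with centred arrays.

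The difference between 2 origins in organoids was set against that in tissues with interaction terms. For small intestine minus gallbladder, 16 Hox genes were called (43.2%, against 36.6% of all genes), 3 with a larger value in organoids (8.11%, against 14.3%) and 13 with a smaller one (35.1%, against 22.3%). Hoxb2 was the largest positive term at 0.92 ± 0.26 (adjusted p = 0.0216), and Hoxc13 (-0.86 ± 0.16, adjusted p = 0.00272) and Hoxa5 (-0.78 ± 0.13, adjusted p = 0.00144) the largest negative ones. For gallbladder minus liver 12 were called (32.4%, against 39.8%), 11 of them positive (29.7%, against 22.7%). For small intestine minus liver 1, Hoxc4, was called (2.70%, against 35.2% of all genes and 19.0% lower), at -0.48 ± 0.15 (adjusted p = 0.0335). Quantile normalisation gave 3 positive and 4 negative, 5 and 2, and 1 (Hoxb2) and 0, in the same order. Leaving out 1 array moved the counts to between 6 and 17, 4 and 15, and 0 and 2, with the lowest reached without gallbladder organoid replicate 2 in the first and second and, in the first, also without small intestine organoid replicate 2; in the third it was reached without either differentiated or small intestine organoid array or liver organoid replicate 1.

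Genes that act with or upstream of Hox proteins were counted in the same comparisons. Of 8 cofactors of the TALE homeobox family measured, 1 was higher and 3 lower in small intestine than gallbladder organoids, with a list median of -0.31 against -0.11 over all genes. These 4 were 50.0% of the list, beside 35.6% of all genes called. Meis2 (-1.77 ± 0.26, adjusted p = 0.000464) and Meis1 (-1.35 ± 0.12, adjusted p = 1.14e-05), which bind DNA with Hox and Pbx proteins, were lower, as was Meis3 (-0.69 ± 0.13), and Pknox1 was higher (0.67 ± 0.16). Meis1 read 6.30 and 6.31 in small intestine organoids, 7.69 and 7.62 in gallbladder organoids and 7.66 and 7.71 in liver organoids. Small intestine organoids overlapped neither, as in 81.4% of all genes against gallbladder and 68.7% against liver organoids. Against liver organoids 4 of 8 were lower (50.0%, beside 14.2% of all genes) and 0 higher, with Meis2 at -1.84 ± 0.26, Meis1 at -1.39 ± 0.12 and Pknox2 at -1.31 ± 0.32. Between gallbladder and liver organoids 0 of 8 were called, and after withdrawal Meis3 alone was higher (0.97 ± 0.13, adjusted p = 0.00242).

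Of 8 ParaHox and cluster-flanking genes, Cdx2 and Cdx1 were higher in small intestine organoids (25.0%, beside 15.4% of all genes against gallbladder and 12.2% against liver) and 0 were lower in either comparison. Cdx2 read 12.36 and 12.35 in small intestine organoids against 8.54 and 8.74 in gallbladder organoids and 8.71 and 8.02 in liver organoids, differing by 3.72 ± 0.24 (adjusted p = 1.43e-06) and 3.99 ± 0.24 (adjusted p = 8.3e-07). Cdx1 differed by 2.57 ± 0.23 and 2.77 ± 0.23. These caudal-type genes, which specify the intestine, thus separated the organoids by several log2 units where the signals of the Hox genes differed by less than 1. Most Hox genes were below the low-level mark in organoids, where a change in RNA is compressed. The sizes therefore do not compare changes in RNA. Between gallbladder and liver organoids and after withdrawal 0 of the 8 were called.

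Of 16 retinoic acid pathway genes, 1 was higher and 7 lower in small intestine than gallbladder organoids, with a median of -0.36; lower calls were 43.8%, beside 20.2% of all genes, and higher ones 6.25%, beside 15.4%. Stra6, the retinol uptake receptor, was lower by -4.82 ± 0.14 (adjusted p = 9.79e-09), reading 7.23 and 7.21 against 12.08 and 11.99. Aldh1a2, which makes retinoic acid, was lower (-3.07 ± 0.24), as was the receptor Rarb (-2.07 ± 0.42), and Aldh1a1 was higher (3.81 ± 0.26). Against liver organoids 1 was higher, Aldh1a1 (1.13 ± 0.26), and 5 lower, led by Stra6 (-3.76 ± 0.14), the receptor Rarg (-2.22 ± 0.20) and Aldh1a3 (-0.98 ± 0.20), so that 37.5% were called, beside 26.5% of all genes. Between gallbladder and liver organoids 2 were higher, Aldh1a2 (2.29 ± 0.24) and Stra6 (1.05 ± 0.14), and Aldh1a1 was lower (-2.67 ± 0.26), 18.8% of the list beside 12.7% of all genes. Withdrawal changed 4 of the 16 (25.0%, beside 4.73% of all genes): Aldh1a1 (2.62 ± 0.26) and Aldh1a3 (1.00 ± 0.20) rose, and Stra6 (-1.59 ± 0.14) and Aldh1a2 (-1.56 ± 0.24) fell.

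Of 18 Polycomb and trithorax genes, 3 were higher and 3 lower in small intestine than gallbladder organoids, with a median of -0.01. The 6 were 33.3% of the list, near the 35.6% of all genes called. Higher were Eed (1.02 ± 0.12), Suz12 (0.78 ± 0.11) and Ezh2 (0.72 ± 0.17), core parts of Polycomb repressive complex PRC2, and lower were Phc2 (-0.84 ± 0.11), Bmi1 (-0.52 ± 0.13) and the demethylase Kdm6b (-0.46 ± 0.14). Against liver organoids Ezh2 (0.75 ± 0.17), Cbx2 (0.47 ± 0.11) and Eed (0.45 ± 0.12) were higher and Phc2 was lower (-0.65 ± 0.11), 22.2% of the list beside 26.5% of all genes. Between gallbladder and liver organoids Bmi1 was higher (0.57 ± 0.13) and Eed (-0.56 ± 0.12) and Suz12 (-0.48 ± 0.11) were lower (16.7%, beside 12.7%), and withdrawal gave 0 called. In organoids against their own tissue 12 of the 18 were higher and 1 lower in small intestine, 11 and 2 in gallbladder, 14 and 0 in liver, where 20.2%, 32.7% and 26.7% of all genes were higher.

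Of 18 noncoding RNA genes of the clusters 10 were measured. Relative to gallbladder organoids, small intestine organoids were lower in 3 (30.0%, beside 20.2% of all genes) and higher in 0: Mir615 (-0.84 ± 0.13, adjusted p = 0.000739), Hottip, a transcript at the Hoxa13 end (-0.51 ± 0.12), and Hoxd3os1 (-0.33 ± 0.11). Mir615 and Hottip were higher in gallbladder than liver organoids too (0.61 ± 0.13 and 0.44 ± 0.12), with Mir196b (0.35 ± 0.09). These 3 were 30.0% of the 10, beside 6.17% of all genes called higher. Hottip (5.34 to 5.99) and Mir196b (6.15 to 6.53) were below the low-level mark on every undifferentiated organoid array. Their differences are thus differences in signal only, while Mir615 was above the mark on each of these arrays. For Mir615 the organoid signals were 8.78 and 8.83 (gallbladder), 8.23 and 8.15 (liver) and 7.94 and 8.0 (small intestine). Gallbladder organoids were thus above both other origins on every array. The mature forms that these 2 miRNA genes encode, from RefSeq (GRCm38.p6), are shown with the seed, bases 2 to 8, in capitals, since it sets which transcripts a miRNA pairs with. The sources used here do not say whether the probe sets read the mature molecules.
mmu-miR-615-5p: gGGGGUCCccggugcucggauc
mmu-miR-615-3p: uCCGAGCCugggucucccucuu
mmu-miR-196b-5p: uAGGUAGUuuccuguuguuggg
mmu-miR-196b-3p: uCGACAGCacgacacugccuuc
Mir615 lies on the plus strand of chromosome 15, and Mir196b on the minus strand of chromosome 6. The seed of miR-196b-5p, AGGUAGU, is also that of miR-196a-5p, encoded within the Hoxb and Hoxc clusters by Mir196a-1 and Mir196a-2.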

How the data were processed

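RNA of 14 samples was measured on Affymetrix arrays. The deposited log2 signals were made by the authors with RMA, per the submitters' processing notes; its version is not given in the sources used here. Of 35556 probe sets, 21789 had 1 gene symbol, 1621 several and 12146 none listed; 21698 matched the reference by gene number, which changed 0 symbols. The probe set with the highest mean was kept for the 999 genes with more than 1, leaving 19938 genes. Groups came from the sample titles. All 14 arrays entered 1 model of 7 group means (limma 3.58.1, R 4.3.3), which leaves 7 degrees of freedom, or 9.91 with the prior; tests were 2-sided, with Benjamini-Hochberg adjustment over all genes. The code was tested on simulated data. Interaction terms are contrasts of the same fit.

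The members, gene lists and tests were chosen with earlier results of these data known. Array values are given for Hox genes called between organoids and in each other comparison for the called genes that differ most, up to 6; list genes are named up to 3 per direction. The alternatives were quantile normalisation, centring arrays, leaving out the dimmest 40% of genes, the mean of a gene's probe sets, fitting only the arrays compared, a minimum difference of 1 log2 unit, leaving out each array in turn, and a replicate block. Chosen after seeing the data were leaving out both gallbladder tissue arrays and crossing the replicate numbers. The number of arrays limits the precision.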

Additional observations from a re-analysis of the deposited data

Results flagged for a closer look

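For 29 values the difference between 2 origins in organoids differed from that in tissues by the interaction term of the limma fit, at an adjusted p of 0.00144 to 0.0475. Of these, 5 were called under every alternative except a minimum difference of 1 log2 unit, and 24 were not called under at least 1 alternative. Each value is the origin difference in organoids less that in tissues, in log2 units.

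For small intestine minus gallbladder the terms above 0 were Hoxb2 (0.92), Hoxd8 (0.62) and Hoxd10 (0.53). Below 0 among anterior genes were Hoxc4 (-0.66), Hoxd3 (-0.58) and Hoxb1 (-0.49). Below 0 among central genes were Hoxa5 (-0.78), Hoxc5 (-0.76), Hoxb5 (-0.66) and Hoxb6 (-0.60). Below 0 among posterior genes were Hoxc13 (-0.86), Hoxa13 (-0.74), Hoxd12 (-0.63), Hoxc10 (-0.58), Hoxa10 (-0.57) and Hoxd13 (-0.56). Those called under every such alternative were Hoxa5 (adjusted p up to 0.0123), Hoxc13 (up to 0.0159) and Hoxc4 (up to 0.0393).

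For small intestine minus liver the term of Hoxc4 was -0.48. For gallbladder minus liver the terms above 0 were Hoxc9 (0.79), Hoxc13 (0.72), Hoxc12 (0.70), Hoxd9 (0.61), Hoxd3 (0.55), Hoxa10 (0.52), Hoxa5 (0.50), Hoxc11 (0.48), Hoxc10 (0.47), Hoxd11 (0.43) and Hoxb1 (0.42), and Hoxd10 was below 0 (-0.61). Hoxc12 (adjusted p up to 0.0423) and Hoxc13 (up to 0.0292) were called under every such alternative. The gallbladder tissue arrays enter 28 of the 29 terms, and the part of their hepatocyte and smooth muscle signal was not tested.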

How the results depend on the processing

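Of 100 counts of called Hox genes under alternatives other than leaving out an array, 62 were within 1.5 times the main count and 38 were not, and 0 named values reversed. With a minimum difference of 1 log2 unit the count was 0 throughout. Only 5 Hox genes passed the filter on dim genes, and 1 was called for small intestine minus gallbladder organoids, 1 for small intestine minus liver organoids, 1, 0 and 1 for the tissue comparisons (small intestine minus gallbladder, small intestine minus liver, gallbladder minus liver), 0 for small intestine organoids minus tissue, 3 for gallbladder organoids minus tissue, and 2 and 1 for the interactions of small intestine and of liver with gallbladder.

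Fitting only the arrays compared gave 5 for small intestine minus gallbladder organoids, 1 (Hoxc13) for gallbladder minus liver organoids, 1 (Hoxc13) for differentiation, 2, 1 and 2 for the same 3 tissue comparisons, 7 and 1 for gallbladder and liver organoids minus tissue, and 10, 0 and 6 for the interactions. Quantile normalisation gave 5 for small intestine minus gallbladder organoids and 7 and 7 for the 2 interactions with gallbladder. Centring gave 8 for liver organoids minus tissue and 19 for the gallbladder and liver interaction. Without both gallbladder tissue arrays the small intestine and liver interaction gave 2. Some alternatives leave fewer genes or arrays, and the tissue-only fits leave out the organoid arrays, whose replicates varied less. The cause of these changes in count was not tested. Apart from the crossed block below, counts under alternatives are given here and above without the share of all genes called. They therefore do not show a change particular to the Hox genes.

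Leaving out each array in turn, with a lone array assumed to vary like the other groups, gave 1 to 4 for small intestine minus gallbladder organoids, 0 to 2 for small intestine minus liver organoids, 0 to 0 for gallbladder minus liver organoids and for differentiation, 11 to 20, 1 to 4 and 11 to 23 for the tissue comparisons, 3 to 7, 8 to 22 and 1 to 6 for organoids minus tissue (small intestine, gallbladder, liver), and 6 to 17, 0 to 2 and 4 to 15 for the interactions. The small intestine and gallbladder interaction gave 7 without gallbladder organoid replicate 1, 6 when replicate 2 was left out, 8 and 6 for the small intestine organoid replicates in the same order, and 9 without small intestine tissue replicate 1. The gallbladder and liver interaction gave 4 without gallbladder organoid replicate 2 and 5 without liver organoid replicate 2. The small intestine and liver interaction gave 0 without either differentiated organoid array, either small intestine organoid array or liver organoid replicate 1, and 2 without either gallbladder tissue array or small intestine tissue replicate 2.

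Same-numbered arrays showed little shared deviation over the 21 pairs of groups (r from -0.10 to 0.14). Samples from the same mouse need not deviate together, so these correlations cannot decide whether the numbers pair the samples. With the replicate block 1 Hox gene was called between small intestine and liver tissue. A crossed block for differentiated against undifferentiated gallbladder organoids gave 884 called genes, 0 of them Hox, against 943 without a block. The low signals limit what can be detected, since 32 of the 37 genes lie below the level of the dim filter.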

Other observations

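Hoxb8, a central gene without a probe set of its own, shares a probe set with Hoxb7. Its signals were 5.57 and 5.54 in organoids of gallbladder, 5.46 and 5.43 after differentiation, 5.31 and 5.28 in those of liver, and 5.38 and 5.37 in those of small intestine. In tissue it read 5.35 and 5.20 in gallbladder, 5.48 and 5.44 in liver and 5.89 and 5.78 in small intestine, which held the highest values of the 14 arrays. The signal of Hoxb7 and Hoxb8 cannot be told apart there.

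The largest gap between replicates was in Hoxc8, which read 7.61 and 6.41 in small intestine tissue. Pdx1, a ParaHox gene of pancreas and duodenum, read 6.56 on small intestine tissue replicate 1 and 9.63 on replicate 2, the array with the high acinar markers. Hoxa2, Hoxb7, Hoxc8 and Hoxd1 were called in none of the 10 pair comparisons, and the other 33 in at least 1.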
